A study of Mus musculus with 10 samples.

Results

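The IL-6 family was followed through 10 genes picked by symbol. They were the cytokine genes *Il6*, *Lif*, *Il11* and *Clcf1*, the receptor chain genes *Il6st*, *Lifr*, *Osmr* and *Il6ra*, and the signalling genes *Stat3* and *Socs3*. All 10 were found among the 26888 genes listed for OP9 stromal cells. Cytokines of this family act through receptor complexes built around gp130, the shared signal transducing chain that *Il6st* encodes. Ligand binding activates JAK kinases on the cytoplasmic tails, which phosphorylate STAT3, and STAT3 then enters the nucleus and switches on target genes, among them *Socs3*, whose product binds gp130 and JAK and shuts the pathway down. Stromal cells of the bone marrow are known producers of IL-6 and LIF, cytokines that act on blood progenitors.

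OP9 is a single stromal line from the calvaria of (C57BL/6xC3H)F2-op/op mice, which lack functional M-CSF, so every library carries that genotype. The study asked how these cells differ between an arrangement that supports maturation of haematopoietic stem cells and ordinary culture. For 6 libraries, cells brought into suspension with trypsin were pelleted into reaggregates and kept for 48 h on nitrocellulose filters with 0.8 µm pores where medium meets gas, 3 of them (reaggregates 2, 4 and 6) with IL-3 at a dose labelled as 200 µg/µl, far above usual cytokine doses, so that the unit may be an error, and 3 (reaggregates 1, 3 and 5) without. They were then dissociated with collagenase and dispase. The other 4 libraries came from flat cultures submersed in medium, of which flat cultures 2 and 4 carried the label of the de Bruijn laboratory and flat cultures 1 and 3 no source label. The methods of the study name the Medvinsky group as the other keeper of such cells, without saying which cultures came from it. The source of the reaggregated cells was not labelled either, so source and culture could not be separated, and nothing in the labels says which cultures were grown independently, so p-values measure only the spread between these samples, which may be technical.

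Expression was deposited as RPM, the reads of each gene scaled to 1 fixed total of reads on genes per library, a unit that is not divided by gene length. Depth, read from the commonest value above 0 taken as 1 read, was 7.35 to 9.43 M reads in reaggregates and 8.26 to 8.70 M in flat cultures, and 3 reads, the floor used here, corresponded to 0.318 to 0.408 RPM. The floor covers counting error only. Fold changes are differences of log2(RPM + 0.5), on which changes of weakly expressed genes come out too small. A call required at least a 2-fold change together with a limma adjusted p (Benjamini-Hochberg) no higher than 0.05, taken over 16933 genes that exceeded 0.5 RPM in 1 library or more. On average the most abundant of the 8 stromal markers examined was *Col1a2*, at 7610 to 11300 RPM in reaggregates and 1190 to 6340 RPM in flat cultures. *Cxcl12* (4560 and 3990 RPM) lay above it in flat cultures 2 and 4 (2070 and 1190 RPM), and *Thy1* reached at most 0.359 RPM. Of the 7 tested, 5 were called higher in reaggregates, where 7.32% of all genes were, and *Kitl* was called lower (104 to 156 RPM beside 180 to 356 RPM), while *Cxcl12* spread from 125 to 4560 RPM over the flat cultures and was not called. Among 7 blood cell markers listed, *Ptprc* and *Emr1* were at 0 in all 10 libraries, *Csf1r* reached at most 1.23 RPM, and *Lyz2* (6.92 to 48.5 RPM), *Cd14* (4.49 to 8.98 RPM) and *Cd68* (1.61 to 8.23 RPM) were present, with 0 of 5 tested called.

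Of the 10 genes, 2 were called higher in reaggregates, *Lifr* and *Stat3*, and 0 were called lower, where 13.8% of all genes tested were called, 7.32% higher and 6.53% lower. The median log2 fold change was 0.24 over the 9 genes other than *Il11*, which was barely detected, and 0.04 over all genes. An adjusted p of at most 0.05 at any fold change was reached by 3 of the 10 genes and by 29.3% of all genes. The reaggregates and flat cultures did not separate completely for any of the 10 genes, whereas they did for 19.1% of all genes. For 9 of the 9 genes above the floor in all 4 flat cultures, *Il11* being under it, flat culture 3 gave the highest flat value, as it did for 36.8% of all genes above the floor there. For *Il6* flat culture 1 was practically level with it. That count was made after the values had been seen.

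**Figure D1:**
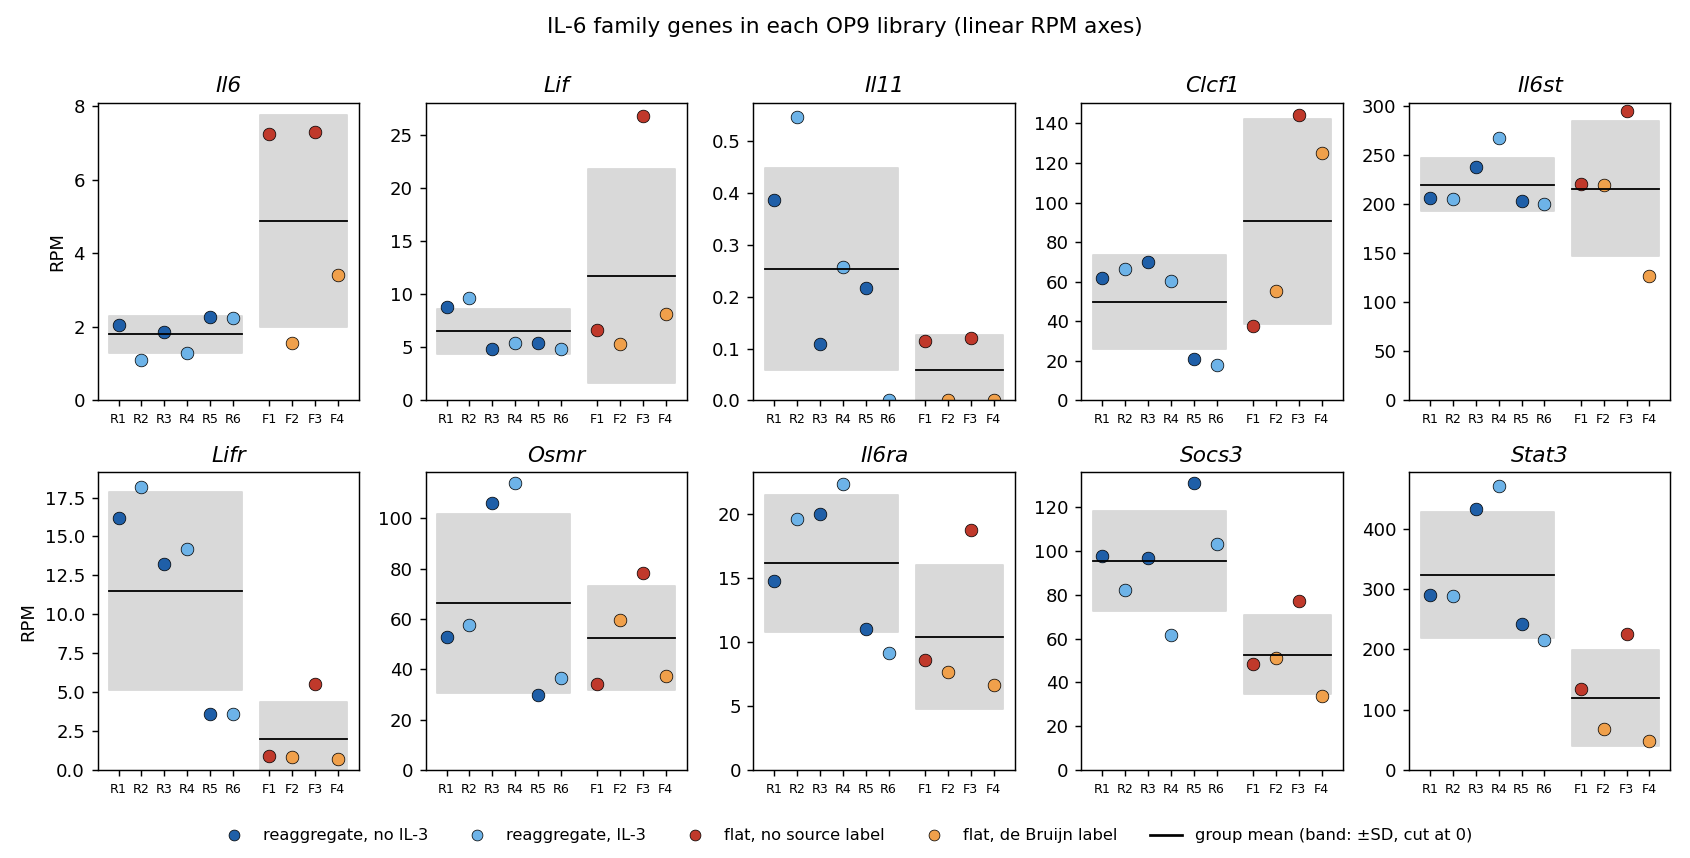
RPM of the 10 IL-6 family genes in each library, on linear axes that start at 0 and differ between panels. R1 to R6 are the reaggregates, F1 to F4 the flat cultures, lines are group means and bands 1 SD. *Lifr* ran from 3.58 to 18.2 RPM in reaggregates and *Stat3* from 215 to 472 RPM, and flat culture 3 (5.51 and 226 RPM) lay within both ranges.

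Among the cytokines, *Il6*, the founding ligand of the family, was low in all libraries. It measured 7.25, 1.55, 7.30 and 3.40 RPM in flat cultures 1 to 4, and its lowest, median and highest values in the 6 reaggregates were 1.09, 1.95 and 2.28 RPM. Flat cultures 1, 3 and 4 lay above every reaggregate, but flat culture 2 fell within their range, so the groups overlapped. Means were 1.80 ± 0.501 RPM (SD, n = 6) for reaggregates and 4.88 ± 2.87 RPM (SD, n = 4) for flat cultures. The log2 fold change was −1.06 ± 0.37 (SE), and the adjusted p of 0.0513 narrowly missed the threshold. Small changes of method moved it across. *Il6* was called lower in 8 of 26 alternative settings, among them the 3 other scalings, and its adjusted p over these 26 ranged from 0.00313 to 0.533. Leaving out flat culture 2 gave a log2 fold change of −1.46 and an adjusted p of 0.00818. Against flat cultures 1 and 3 alone the value was −1.79 (adjusted p = 0.00313), and against flat cultures 2 and 4 alone −0.33 (adjusted p = 0.416).

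The 5 cell cycle markers listed were all called lower in reaggregates, where 6.53% of all genes were. Their summed level, of which *Top2a* was the most abundant on average, was 1252, 388, 1065 and 529 RPM in flat cultures 1 to 4 and 140 to 218 RPM in reaggregates. That sum was highest in flat cultures 1 and 3, as *Il6* was, although *Cdc2a* (304, 99.0, 166 and 174 RPM) did not keep this order, and their part in the *Il6* values was not tested. The expression profiles most like that of *Il6* over the 10 libraries, by Pearson's r of log2(RPM + 0.5) among 11661 genes, were those of *Etaa1* (r = 0.96), a replication stress factor, of the unnamed genes AC129222.4 (r = 0.96) and AL611930.4 (r = 0.95), and of *Slbp* (r = 0.95), which binds the stem-loop of histone mRNAs. *Slbp* measured 77.8, 42.3, 73.2 and 53.0 RPM in flat cultures 1 to 4 and 33.3 to 43.3 RPM in reaggregates. These r values describe libraries that also share culture and source, and carry no test.

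*Lif*, the ligand of the LIFR and gp130 pair, stood out in 1 library. Flat cultures 1 to 4 gave 6.68, 5.37, 26.8 and 8.14 RPM, and the reaggregates gave 4.89, 5.4 and 9.67 RPM as lowest, median and highest. Flat culture 3 was far above the rest, while the other 3 flat cultures lay inside the range of the reaggregates. The log2 fold change was −0.56 (95% interval −1.43 to 0.31, adjusted p = 0.297), and −0.08 without flat culture 3 (adjusted p = 0.837).

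*Clcf1*, which encodes the cardiotrophin-like ligand of the CNTF receptor, was the most abundant of the 4 cytokine genes. Its values were 37.6, 55.4, 144 and 125 RPM in flat cultures 1 to 4, and in reaggregates the lowest, median and highest were 17.8, 61.3 and 70.1 RPM. Here flat cultures 3 and 4, of which only flat culture 4 carries a source label, were the high ones, and reaggregates 5 and 6, at 20.8 and 17.8 RPM, lay below every other library. The groups overlapped, at a log2 fold change of −0.85 (95% interval −1.93 to 0.23, adjusted p = 0.205). *Il11*, whose product signals through its own receptor chain and gp130, was barely detected. It read 0.115, 0, 0.12 and 0 RPM in flat cultures and 0.385, 0.545, 0.109, 0.256, 0.217 and 0 RPM in reaggregates 1 to 6. In 8 of the 10 libraries it did not exceed the floor of 3 reads, only reaggregate 2 carried the gene past the filter on low values, and no fold change is given.

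*Il6st*, the gene of the shared gp130 chain, measured 221, 220, 295 and 127 RPM in flat cultures and 200, 206 and 268 RPM as the lowest, median and highest of the reaggregates. The reaggregates lay between the lowest and the highest flat culture, with a log2 fold change of 0.08 (95% interval −0.37 to 0.54, adjusted p = 0.779). That interval includes changes of up to 1.45-fold upward and 1.29-fold downward.

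For *Lifr*, the LIF receptor chain, the groups lay further apart. Flat cultures 1 to 4 had 0.921, 0.835, 5.51 and 0.729 RPM, and reaggregates 1 to 6 had 16.2, 18.2, 13.2, 14.2, 3.58 and 3.61 RPM. Reaggregates 1 to 4 lay above all flat cultures, whereas reaggregates 5 and 6 lay above flat cultures 1, 2 and 4 and below flat culture 3. Levels averaged 2.0 ± 2.34 RPM (SD, n = 4) and 11.5 ± 6.36 RPM (SD, n = 6), so that *Lifr* rose by a log2 fold change of 2.38 ± 0.58 (SE, adjusted p = 0.0119). With such low flat values its size depended on the pseudocount, at 2.72 with 0.1 and 2.09 with 1. In bulk samples, fewer cells of a type and less RNA per cell cannot be told apart. The call held with each library left out in turn (log2 fold change 2.16 to 2.93). It was lost in 5 of 26 alternatives, over which the adjusted p ranged from 0.00174 to 0.454. These were consecutive reaggregates averaged (2.38, adjusted p = 0.0805), flat cultures 1 and 3 alone (1.79, adjusted p = 0.136), reaggregates 5 and 6 alone (1.08), and reaggregates with IL-3 alone (2.43) or without it alone (2.34).

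*Osmr*, the oncostatin M receptor chain, is the neighbour of *Lifr* on chromosome 15, with 255 kb between the annotated genes (*Osmr* at chr15:6763577-6824313 and *Lifr* at chr15:7079559-7147489, NCBIM37). The flat cultures gave 34.1, 59.6, 78.2 and 37.4 RPM and reaggregates 1 to 6 gave 53.0, 57.6, 106, 114, 29.6 and 36.7 RPM. Reaggregates 3 and 4 were the highest libraries and reaggregate 5 the lowest, so the spread among reaggregates exceeded the difference between the groups (log2 fold change 0.24, 95% interval −0.61 to 1.10, adjusted p = 0.652). For *Il6ra*, the IL-6 binding chain, flat cultures had 8.63, 7.63, 18.8 and 6.68 RPM and reaggregates 9.14, 17.2 and 22.4 RPM as lowest, median and highest. Apart from flat culture 3, every flat culture lay below every reaggregate. With all libraries the log2 fold change was 0.66 (95% interval −0.06 to 1.38, adjusted p = 0.146), and without flat culture 3 it was 0.97 (adjusted p = 0.0211), under the fold required for a call.

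*Stat3*, the transcription factor of the pathway, measured 134, 68.4, 226 and 48.5 RPM in flat cultures 1 to 4 and 290, 289, 433, 472, 242 and 215 RPM in reaggregates 1 to 6. Of the 6 reaggregates, 5 lay above all flat cultures, and reaggregate 6 lay below flat culture 3. The reaggregates averaged 324 ± 105 RPM (SD, n = 6) and the flat cultures 119 ± 80.0 RPM (SD, n = 4), and *Stat3* rose by a log2 fold change of 1.63 ± 0.39 (SE, adjusted p = 0.0108). Like *Lifr*, it was called with each library left out in turn (1.28 to 2.02). Its call was lost in the same 5 of 26 alternatives, over which its adjusted p ranged from 0.000182 to 0.369. Among these were consecutive reaggregates averaged (1.63, adjusted p = 0.0945), flat cultures 1 and 3 alone (0.83, adjusted p = 0.113), and reaggregates 5 and 6 alone (1.18). In the annotation used here the *Stat3* span overlaps that of *Stat5a* on the opposite strand, and reads from the overlap may not have been told apart. Overlaps were also annotated for *Il11ra1* (5 genes, with *Galt* on the same strand), *Fgl2*, *Ccnd1* and *Timp1*, described below.

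*Socs3*, the feedback inhibitor, passed the adjusted p but not the fold required. Its flat values were 48.6, 51.1, 77.0 and 33.8 RPM, and those of reaggregates 1 to 6 were 97.9, 82.3, 97.0, 61.8, 131 and 103 RPM. Only reaggregate 4 lay below flat culture 3, and all 6 lay above the other 3 flat cultures. The log2 fold change was 0.88 ± 0.24 (SE, 95% interval 0.35 to 1.41, adjusted p = 0.0198), and without flat culture 3 it became 1.08 (adjusted p = 0.0037), which is past both thresholds. Its adjusted p over 26 alternatives ran from 0.0037 to 0.200. Profiles most like that of *Socs3* among 11660 genes were those of *Jmjd8* (r = 0.97), *Tnfrsf1b* (r = 0.96), which encodes a TNF receptor, *Zdhhc4* (r = 0.95) and *Tob2* (r = 0.94), again as a description of these 10 libraries. *Tnfrsf1b* measured 43.4, 49.2, 68.4 and 28.5 RPM in flat cultures and 67.0 to 102 RPM in reaggregates.

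**Figure D2:**
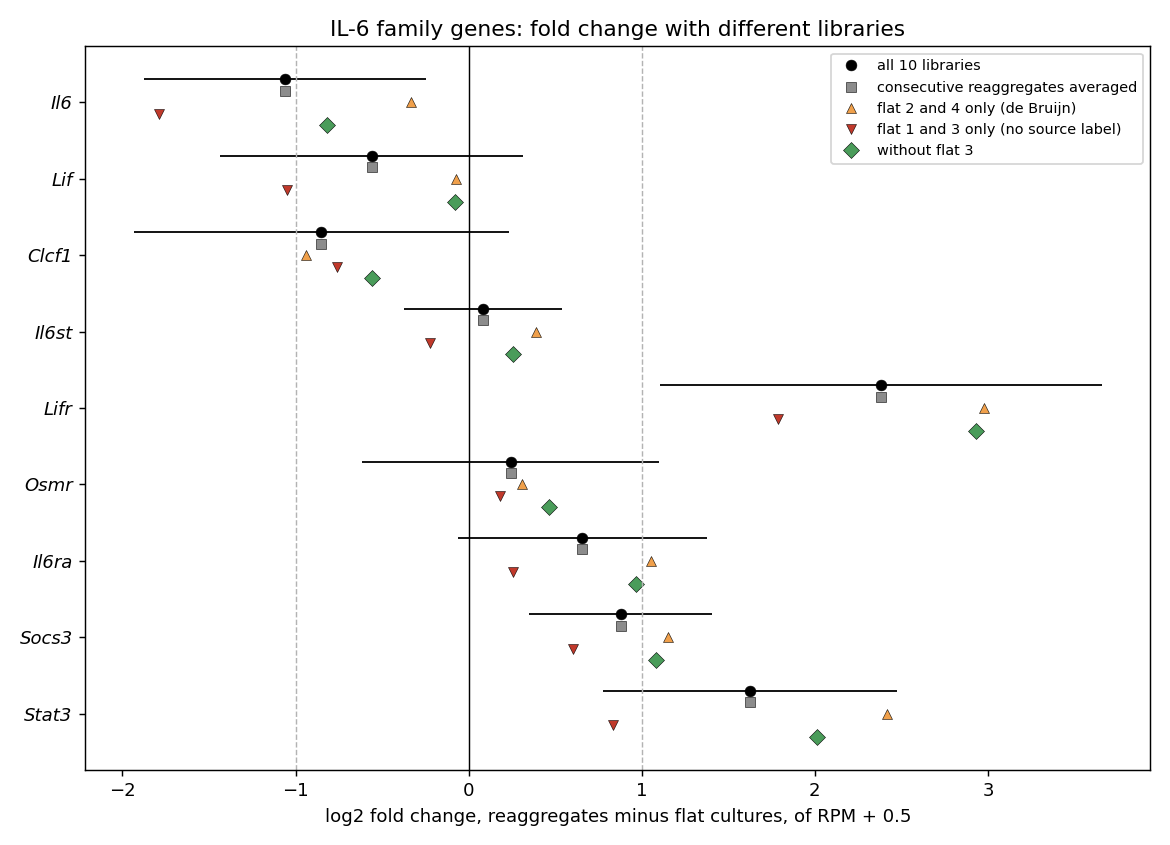
Log2 fold change (horizontal axis, reaggregates minus flat cultures, RPM + 0.5) of the 9 genes other than *Il11*, with all 10 libraries (circles, bars are 95% intervals), with consecutive reaggregates averaged, with either pair of flat cultures alone, and without flat culture 3. Dashed lines mark a fold change of 2. *Stat3* ran from 0.83 against flat cultures 1 and 3 to 2.42 against flat cultures 2 and 4, and *Il6st* from −0.22 to 0.39.

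Flat culture 3 also stood apart in immediate early genes, transcripts that respond within minutes to serum, stress or cell dissociation. The summed level of the 10 immediate early genes examined, of which *Egr1* was the most abundant on average, was 445, 887, 2756 and 970 RPM in flat cultures 1 to 4 and 2306 to 2930 RPM in reaggregates. *Fos* measured 19.1, 79.8, 436 and 16.9 RPM in the flat cultures and 294 to 369 RPM in reaggregates. In flat culture 3 the sum thus lay within the range of the reaggregates. There *Egr1* (1030 RPM), *Fos*, *Ier2* (98.9 RPM), *Ier3* (109 RPM) and *Dusp1* (339 RPM) lay above every reaggregate. *Nr4a1* (166 RPM beside 371 to 695 RPM) and *Atf3* (31.5 RPM beside 65.9 to 98.9 RPM) lay below every one. Of the 10 immediate early genes, 4 were called higher in reaggregates (*Fos*, *Fosb*, *Atf3* and *Nr4a1*), where 7.32% of all genes were. *Ier2*, *Ier3* and *Dusp1* had negative log2 fold changes (−0.30, −0.11 and −0.52) and were not called. The part of the immediate early genes in the values of *Stat3*, *Socs3*, *Lif* and *Lifr* was not tested. Without flat culture 3, 3 of the 10 IL-6 family genes were called, all higher. Of all genes, 21.5% were called there in either direction, 2121 higher and 1522 lower.

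Among the flat cultures, several of these genes were ordered by source label. Per the study's methods, cell source and passage number brought equivalent variance, and the labels used here give no passage number. In both de Bruijn cultures *Il6*, *Il6st*, *Lifr*, *Il6ra* and *Stat3* were lower than in both other flat cultures. These were 5 of the 9 genes above the floor in all 4, where 32.5% of all genes above it showed that order. For *Il6st* flat cultures 1 and 2 differed by only 1 RPM, 221 against 220. For *Lifr* these cultures measured 0.921 and 0.835 RPM, where 1 read was 0.115 and 0.119 RPM. The log2 difference of *Lifr* by source label was −1.19, and −0.15 without flat culture 3. *Stat3* had the smallest adjusted p of the 10, with a log2 difference of −1.59 between de Bruijn and other flat cultures (95% interval −2.51 to −0.66, adjusted p = 0.0744), followed by *Il6* at −1.46 (95% interval −2.57 to −0.35, adjusted p = 0.130). With 2 cultures against 2, limma called 0 of the 10 genes and 965 of all genes (5.7%), and *Il6* and *Stat3* had unadjusted p of 0.0191 and 0.00629. *Stat3* was called lower there with a stricter filter (adjusted p = 0.0243) and with quantile normalization (0.0499), and its adjusted p over all alternatives ranged from 0.0163 to 0.419. With all 10 libraries in 1 fit, both *Il6* and *Stat3* were called lower in the de Bruijn cultures (adjusted p = 0.0227 for *Il6* and 0.0163 for *Stat3*), where 13.9% of all genes were called in either direction. That fit still sets 2 cultures against 2, but its spread also comes from the reaggregates, a different culture. Of 6 adipocyte markers, *Fabp4* (435 and 711 RPM beside 31.3 and 47.2 RPM) and *Pparg* (395 and 295 RPM beside 49.4 and 58.1 RPM) were called higher in the 2 de Bruijn cultures than in the 2 others, while *Cebpa*, *Lpl* and *Adipoq* were not. *Plin1*, at 1.43 and 1.21 RPM beside 0, passed the filter on low values through the de Bruijn cultures alone and is not counted. The 6 summed to 370, 1385, 528 and 1457 RPM in flat cultures 1 to 4 and 255 to 691 RPM in reaggregates, with *Lpl* the most abundant on average and *Adipoq* at most 0.768 RPM in any library. Between reaggregates and all flat cultures, 3 of the 6 were called lower in reaggregates (*Fabp4*, *Pparg* and *Cebpa*), where 6.53% of all genes were. Of 5 blood cell markers tested, *Lyz2*, the most abundant on average, was called lower in the de Bruijn cultures, and the 7 listed summed to 58.3, 21.6, 45.9 and 18.5 RPM in flat cultures 1 to 4 and 17.3 to 36.0 RPM in reaggregates. Of the 5 cell cycle markers, *Top2a* was called lower in the de Bruijn cultures. So were 3 of 20 STAT3 targets and 2 of 13 *Il6* inducers and mRNA decay factors in the lists described below, with 1 target called higher. Of all genes, 5.7% were called in either direction. The part of these lists was not tested. The choice of flat cultures therefore moved the number of IL-6 family genes called, from 4 higher against the de Bruijn cultures alone (*Lifr*, *Stat3*, *Socs3* and *Il6ra*, where 25.7% of all genes were called in either direction) to 1 lower against the other flat cultures alone (*Il6*, where 9.87% were called in either direction).

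For several of these genes, reaggregates varied between consecutive pairs more than within them, as whole libraries did. The correlation (r) between reaggregate libraries was 0.994 to 0.995 within consecutive pairs and 0.961 to 0.980 otherwise. Reaggregates 1 and 2, 3 and 4, and 5 and 6 each hold 1 culture without and 1 with IL-3. Folds between and within pairs were taken on log2(RPM + 0.5), so they differ from ratios of the RPM printed. *Lifr* averaged 17.2, 13.7 and 3.60 RPM in the 3 pairs, a range of 4.32-fold between pair means, and differed by at most 1.12-fold within a pair. *Clcf1* averaged 64.2, 65.3 and 19.3 RPM, with ranges of 3.32-fold between and 1.16-fold within pairs, and *Osmr* 55.3, 110 and 33.2 RPM, with 3.30-fold and 1.24-fold. *Stat3* averaged 290, 453 and 229 RPM. The pair of reaggregates 5 and 6 was thus the lowest for these 4 genes, whereas for *Socs3* (90.1, 79.4 and 117 RPM) and *Il6* (1.57, 1.57 and 2.26 RPM) it was the highest. These last genes differed about as much within pairs, by up to 1.57-fold for *Socs3* and 1.60-fold for *Il6*, as between pair means, by 1.5-fold and 1.37-fold. With consecutive reaggregates averaged, as 3 samples, 0 of the 10 genes were called, where 4.38% of all genes were.

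No gene was called for IL-3. In 3 reaggregates with it against 3 without, limma called 0 of 16933 genes (0%), with 68 reaching 0.05 before adjustment, and the 10 IL-6 family genes had log2 differences between −0.41 for *Socs3* and 0.18 for *Osmr*. *Socs3* measured 82.3, 61.8 and 103 RPM with IL-3 beside 97.9, 97.0 and 131 RPM in the preceding reaggregates without it. *Il6* measured 1.09, 1.28 and 2.23 RPM beside 2.05, 1.85 and 2.28 RPM. Both genes were lower with IL-3 in all 3 pairs, by little for *Il6* in the last, which makes 2 of the 10 genes where 8.78% of all genes showed that order. *Osmr* and *Lifr* were higher with IL-3 in all 3 pairs, by log2 differences of 0.12, 0.10 and 0.31 for *Osmr* and 0.16, 0.10 and 0.01 for *Lifr*, again 2 of the 10 where 12.7% of all genes were. The log2 difference of *Socs3* was −0.41 (95% interval −0.95 to 0.12, adjusted p = 1). With consecutive reaggregates as a replicate block it had an unadjusted p of 0.00267 and an adjusted p of 0.982, *Osmr* had 0.0329 and 0.982, and with this block 0 genes were called and 564 reached 0.05 before adjustment.

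Levels were compared between genes per kb of the longest annotated coding transcript, since RPM grows with length. In flat cultures *Clcf1* (48.2 ± 27.6 RPM per kb, SD, n = 4) and *Il6st* (41.4 ± 13.2) came first, followed by *Socs3* (20.6 ± 7.04), *Stat3* (19.7 ± 13.2) and *Osmr* (10.8 ± 4.27). *Il6* (4.49 ± 2.64), *Il6ra* (3.12 ± 1.69) and *Lif* (2.92 ± 2.51) followed, and *Lifr* (0.207 ± 0.243) and *Il11* were last. Neighbours in this order differed by less than the larger of their SDs, except that *Lifr* stood below *Lif*, *Il6* below *Osmr*, and *Socs3* below *Il6st* by more than either SD. In reaggregates the order began with *Stat3* (53.5 ± 17.3 RPM per kb, SD, n = 6), *Il6st* (42.3 ± 5.23), *Socs3* (37.4 ± 9.0) and *Clcf1* (26.4 ± 12.6), while *Il6ra* (4.83 ± 1.60), *Il6* (1.65 ± 0.461), *Lif* (1.62 ± 0.534) and *Lifr* (1.19 ± 0.659) were low. Annotated coding transcripts of *Stat3* range from 2.51 to 6.04 kb and those of *Lifr* from 2.84 to 9.66 kb, so the places of these genes depend on which transcripts were present. All annotated exons of *Clcf1* together cover 3.71 kb, beside a longest coding transcript of 1.88 kb, while for *Il6st* both lengths are 5.21 kb. The place of *Clcf1* before *Il6st* in flat cultures therefore depends on the length used. The mean level of *Il6st* per kb thus exceeded those of *Lifr*, *Osmr* and *Il6ra* in both groups.

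The wider pathway was examined in 6 lists, whose counts stand beside the 7.32% of all genes called higher and 6.53% called lower. The lists were chosen with earlier results of these data known, so their counts and medians are descriptions and not tests. Of 8 other gp130 cytokine genes, 6 were listed and 3 passed the filter, with 0 called. Of 5 further receptor chains, 4 were tested and 1 was called higher. This was *Il11ra1*, the IL-11 receptor chain, at 39.6, 22.3, 39.6 and 24.0 RPM in flat cultures and 50.8 to 72.1 RPM in reaggregates, without overlap. Its log2 fold change of 1.005 (SE 0.20, adjusted p = 0.00434) sat at the fold required, and the call was lost in 16 of 26 alternatives, in 12 of them under that fold and in 4 by the adjusted p alone. Among these were 5 of 10 in which 1 library was left out, at 0.86 to 0.99, where all 10 ranged from 0.86 to 1.13. *Il11ra2* is a near copy of it, at 2.36 to 5.73 RPM over all libraries, between which reads may have been divided.

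In the list of JAK, STAT and RAS-MAPK adaptor genes, 1 of 13 was called higher, close to the share of all genes (7.32%), and 0 lower, with a median log2 fold change of 0.29. The called gene was *Gab1*, a docking protein that links gp130 to the MAPK branch, at 11.9, 20.4, 26.9 and 13.5 RPM in flat cultures and 35.2 to 43.7 RPM in reaggregates, again without overlap (log2 fold change 1.08 ± 0.21, SE, adjusted p = 0.00432). Without flat culture 1 its log2 fold change was 0.91 and without flat culture 4 it was 0.97, both under the fold required, and with consecutive reaggregates averaged its adjusted p was 0.0737. *Jak1*, on average the most abundant gene of the list, measured 307, 186, 416 and 145 RPM in flat cultures and 332 to 374 RPM in reaggregates, with flat culture 3 above all other libraries. Negative regulators other than *Socs3* gave 1 of 12 called higher, again close to 7.32%, and 0 lower, with a median of 0.04. *Ptpn1*, which encodes the tyrosine phosphatase PTP1B that acts on JAK kinases, rose from 46.5, 46.2, 80.6 and 30.2 RPM in flat cultures to 114 to 226 RPM in reaggregates, without overlap (log2 fold change 1.65 ± 0.28, SE, adjusted p = 0.00228). Its call was kept in 25 of 26 alternatives and lost with reaggregates 5 and 6 alone.

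Among 22 genes known as STAT3 targets, 20 were tested, of which 5 were called higher and 2 lower (7.32% and 6.53% of all genes), with a median log2 fold change of 0.64 beside 0.04 for all genes. Whether targets changed more than other genes was not tested, as the list was chosen with earlier results known. *Lbp*, which encodes an acute phase protein that binds lipopolysaccharide, measured 33.3, 1.91, 50.4 and 1.58 RPM in flat cultures and 72.1 to 150 RPM in reaggregates, with the lowest values in the de Bruijn cultures. Its log2 fold change was 3.40 ± 0.83 (SE, adjusted p = 0.0119), but 1.29 against flat cultures 1 and 3 alone (adjusted p = 0.0281) and 5.50 against the de Bruijn cultures alone. *Fgl2*, which encodes a fibrinogen-like protein, was listed at 2.07, 0, 0.958 and 0 RPM in flat cultures and 2.69 to 11.0 RPM in reaggregates (2.60 ± 0.53, adjusted p = 0.00506). With flat cultures 2 and 4 at 0, this log2 fold change depended on the pseudocount, at 3.825 with 0.1 and 2.058 with 1. The transcriptional repressor gene *Bcl6* rose from 7.48, 8.95, 18.3 and 8.26 RPM to 19.4 to 103 RPM (2.10 ± 0.47, adjusted p = 0.00764), and like *Stat3* it was highest in reaggregates 3 and 4, at 93.0 and 103 RPM. *Cebpb*, an acute phase transcription factor, rose from 16.1 to 28.9 RPM in flat cultures to 33.4 to 71.9 RPM (1.14 ± 0.23, adjusted p = 0.00488). The remaining one was the kinase gene *Pim1*, named after its values were seen, at 1.13 (adjusted p = 0.00864).

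The 2 targets called lower were *Ccnd1*, the cyclin that drives entry into the cell cycle, and *Timp1*, an inhibitor of matrix metalloproteinases. *Ccnd1* went from 880, 1960, 1090 and 1810 RPM in flat cultures to 180 to 276 RPM in reaggregates (log2 fold change −2.64 ± 0.23, SE, adjusted p = 6.62e-05), and *Timp1* from 328, 345, 204 and 460 RPM to 69.1 to 138 RPM (−1.78 ± 0.26, adjusted p = 0.00098). Of the 20 targets tested, 10 showed no overlap between the groups, among them the 6 described with library values, where 19.1% of all genes showed none. Both decreases were called in 25 of 26 alternatives, all but reaggregates 5 and 6 alone. The calls of *Fgl2* and *Bcl6* were lost against flat cultures 1 and 3 alone (adjusted p = 0.0632 and 0.0789), as was that of *Cebpb*, whose log2 fold change there was 0.97. With consecutive reaggregates averaged, *Ccnd1* and *Timp1* were called, and *Lbp* (adjusted p = 0.109), *Fgl2* (0.0613), *Bcl6* (0.0556) and *Cebpb* (0.0585) were not.

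Known inducers of *Il6* and factors that act on the stability of its mRNA completed the pathway, with 1 of 13 tested genes called higher (7.32% of all genes) and 0 lower (median 0.43). *Il1b* and *Tnf* were listed at 0 in all 10 libraries. *Arid5a*, which encodes a protein that binds and stabilises *Il6* mRNA, was higher in reaggregates, at 5.76, 1.19, 5.03 and 1.21 RPM in flat cultures against 6.91 to 24.2 RPM, without overlap (log2 fold change 2.07 ± 0.48, SE, adjusted p = 0.00914). This call too was lost with consecutive reaggregates averaged (adjusted p = 0.0805) and against flat cultures 1 and 3 alone (1.18, adjusted p = 0.110). The mRNA decay factors did not pass: *Zfp36* had a log2 fold change of 0.77 (adjusted p = 0.122) and *Zc3h12a* one of −0.27 (adjusted p = 0.566).

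Promoters of the family, as 250 bases before the start of transcription from RefSeq (GRCm38.p6), were searched for motifs of STAT and AP-1 factors. They were available for 9 of the 10 genes, as 11 promoters, with no entry matched for *Clcf1*. The STAT motif TTCNNNGAA, which reads the same way on both strands, was found in 1 of these 11 promoters, that of *Socs3*, beside 7.02% of all 32851 promoters, and its narrower form TTCCNGGAA in 0 of the 11, beside 0.913% of all. The AP-1 motif, TGAGTCA or TGACTCA on the other strand, which FOS and JUN proteins bind, was found in 3 of the 11, those of the cytokine genes *Il6*, *Il11* and *Lif*, beside 4.46% of all promoters. These are matches of letters and not shown to be bound. The 60 bases around each match are shown because they place the motifs in the feedback inhibitor and in the 3 ligands, 5′ to 3′ on the strand of the gene, with the motif in capitals, from chr11:117969486-117969545 (minus strand) for *Socs3*, chr5:30012864-30012923 (plus strand) for *Il6*, chr7:4778205-4778264 (minus strand) for *Il11* and chr11:4257318-4257377 (plus strand) for *Lif*.
Socs3: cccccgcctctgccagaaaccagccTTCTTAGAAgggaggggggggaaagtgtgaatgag
Il6: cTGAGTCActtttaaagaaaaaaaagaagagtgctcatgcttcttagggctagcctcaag
Il11: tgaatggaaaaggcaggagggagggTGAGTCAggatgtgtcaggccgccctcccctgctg
Lif: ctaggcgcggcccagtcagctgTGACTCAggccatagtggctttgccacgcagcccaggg
In *Socs3* the motif began 154 bases before the start, in *Il11* 98, in *Lif* 228 and in *Il6* 249. Of the STAT3 target genes, 17 of 22 were matched, and TTCNNNGAA was present in 4 of their 22 promoters, those of *Bcl6*, *Fga* and *Fgl2*, of which *Bcl6* and *Fgl2* were called higher in reaggregates. It was also present in 4 of 18 promoters in the list of *Il6* inducers and mRNA decay factors, those of *Myd88*, *Nfkb2*, *Tnfrsf1a* and *Zfp36*, none of which was called. In the other 4 lists it was present in 0 of 5 promoters of further cytokine genes, 1 of 10 of receptor chains, 1 of 15 of adaptors, that of *Gab1*, and 0 of 8 of negative regulators. TTCCNGGAA was present in 2 of 22 target promoters (*Bcl6* and *Fga*), 1 of 10 of receptor chains (*Il31ra*) and 0 in the other lists. The AP-1 motif was present in 1 of 5 (*Cntf*), 0 of 10, 1 of 15 (*Shc1*) and 0 of 8 in these 4 lists. It was in 1 of 22 target promoters (*Fgl2*) and 2 of 18 of inducers and decay factors (*Il1a* and *Tnfaip3*).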

How the data were processed

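RNA-seq of 10 OP9 libraries was used. Per the study's methods, the authors aligned reads with TopHat 1.2.0 and Bowtie 0.12.3 to NCBIM37/mm9, assigned them to genes of Ensembl 58 in GeneProf, divided reads with several matches, and deposited RPM for each gene and library. Deposited columns with the authors' own fold change and adjusted p from DESeq were not used. Only 43.5% to 59.9% of values up to 10 RPM were whole multiples of 1 read (tolerance 0.05), so no test on counts was run. Groups came from the labels. The 10 genes were matched by symbol, and both they and the pathway and marker lists were chosen with earlier results of these data known. Linear models were fitted to log2(RPM + 0.5) of all 16933 genes with limma 3.58.1 in R 4.3.3 (moderated variances with a mean-variance trend, Benjamini-Hochberg adjustment), for reaggregates against flat cultures, IL-3 within reaggregates and source label within flat cultures, after tests on simulated data. Text names the 10 genes, list genes called with a group mean of at least 1 RPM (up to 4 per direction and list) and, for *Il6* and *Socs3*, the 4 most correlated genes with a mean of at least 5 RPM. Alternatives were other pseudocounts, filters, scalings and variance models, subsets of libraries, a replicate block and leaving out each library. Gene coordinates are those of Ensembl 65 on the same assembly, and promoters are those of RefSeq. Tables and plots were made in Python 3.11.15 with matplotlib 3.10.9.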

Additional observations from a re-analysis of the deposited data

Results flagged for a closer look

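Across 40 groups of values (20 genes described above, in reaggregates and in flat cultures), 5 had a sample far from the others of its group by Dixon's criterion. About 2 would arise by chance if the groups were independent and their values normally distributed. These genes share the same libraries, so the 2 numbers cannot be compared as a test. In flat cultures the sample was flat culture 3 for 4 genes, with *Lif* at 26.8 RPM (next highest 8.14 RPM), *Lifr* at 5.51 RPM (next 0.921 RPM), *Il6ra* at 18.8 RPM (next 8.63 RPM) and *Bcl6* at 18.3 RPM (next 8.95 RPM). In reaggregates, *Gab1* was far from the others in reaggregate 2, at 43.7 RPM (next 36.7 RPM).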

How the results depend on the processing

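Over 575 alternative values of single genes, 499 kept their direction and their side of the thresholds, 57 lost a call, 15 gained one and 4 changed sign, all in genes that were not called. *Il6st* reversed against flat cultures 1 and 3 alone (−0.22) and with reaggregates 5 and 6 alone (−0.036), ranging from −0.15 to 0.25 with 1 library left out, and *Osmr* reversed with reaggregates 5 and 6 alone (−0.58). Between reaggregates and flat cultures, 2345 genes and 2 of the 10 IL-6 family genes were called. The counts were 741 and 0 with consecutive reaggregates averaged, 4354 and 4 against the de Bruijn flat cultures, 1671 and 1 against the others, 819 and 0 without IL-3, 637 and 0 with IL-3, 21 and 0 with reaggregates 5 and 6 alone, and 3067 and 2 with reaggregates 1 to 4 alone, fits with fewer samples, while the cause of the higher numbers was not tested. Leaving out 1 library gave 1581 to 3643 genes, highest without flat culture 3, and 2 to 3 of the 10. With the replicate number as a replicate block, which leaves reaggregates 5 and 6 without a partner and so uses reaggregates 1 to 4, 3039 genes and 3 of the 10 were called. By their labels, same-numbered samples share only a number. The deviations of reaggregates and flat cultures 1 to 4 from their group means correlated at −0.04, −0.21, 0.07 and 0.16. These deviations also hold the differences between reaggregate pairs and between source labels, so shared handling was not tested. IL-3 gave 0 calls in every setting run. For source label, 965 genes were called (309 higher and 656 lower in de Bruijn cultures), 204 without a filter, 1611 with a stricter filter, 2348 with all libraries in 1 fit, and 0 with any 1 culture left out, where the lone sample is assumed to vary like the others. Quantile normalization gave 646 higher and 799 lower. At this depth, genes near 3 reads such as *Il11* carry no fold change.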
